A study of Mus with 12 samples.

Results

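CD8 T cells lacking the retinoic acid receptor RARα were compared directly with CD8 T cells lacking the AP-1 factor BATF, both activated with retinoic acid (RA). The comparison takes 2 samples of each group, which is 4 of the 12 samples of the series, and covers every gene of the deposited expression table. Bulk RNA sequencing measured naive CD8 T cells isolated from the spleen of C57BL/6 mice and cultured for 20 h in a medium whose serum (10%) had been stripped with charcoal and so was poor in retinoids. Activation came from anti-CD3 at 1 µg/ml on the plate, together with 2 µg/ml of anti-CD28 and 100 U/ml of IL-2. All 6 groups of the series share this activation. The groups are wild type (WT), BATF-KO and RARA-KO, each without RA and with 15 nM all-trans RA (+RA), and RA was read from the sample titles because the treatment label is the same throughout. RARA-KO mice carry floxed Rara alleles that a Cre driven by the distal Lck promoter recombines in T cells, and a transcript without the removed exon can still be made. How the BATF-KO allele was made is not given in the sources used here. Cre is carried by RARA-KO and not by BATF-KO cells, so loss of RARα and presence of Cre cannot be told apart in this comparison. The sources used here do not say whether the 2 samples of a group are separate mice or separate cultures. The p-values therefore cover only how far these particular samples spread, which may be technical.

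RARα pairs with retinoid X receptors on DNA. Without RA the pair recruits corepressors, and with RA it recruits coactivators that raise transcription of RA target genes. BATF has no activation domain of its own and binds DNA with JUN proteins, often together with IRF4, at genes induced by the T cell receptor. In CD8 T cells BATF takes part in effector differentiation, while RA is known for gut homing and for its own breakdown.

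Between 12085 and 12486 genes reached 1 FPKM (sequenced fragments divided by transcript length and by the mapped fragments of the sample) in each of the 12 samples. The correlation between the replicates of each group was 0.973 to 0.986, taken across genes that are not independent. The steps between low FPKM values gave a relative depth of 0.95 to 1.38 with WT replicate 1 set to 1, from as few as 6 genes in a sample, and the absolute depth is unknown.

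Batf (ENSMUSG00000034266, chromosome 12, 85686720 to 85709087, GRCm38), the gene targeted in BATF-KO, had 4.72 and 4.05 FPKM in BATF-KO+RA, and was at 21.0 and 32.79 FPKM in RARA-KO+RA and at 23.31 and 19.1 FPKM in WT+RA. Both BATF-KO+RA samples lay under all others with RA, as the labels require (log2 fold change of RARA-KO+RA over BATF-KO+RA 2.34 ± 0.26 SE, adjusted p = 0.00105). All fold changes here are differences of log2(FPKM + 1), positive where RARA-KO+RA was higher, with limma's moderated test and Benjamini-Hochberg adjustment over all genes tested. Rara (ENSMUSG00000037992, chromosome 11, 98927800 to 98974942), which encodes RARα, was at 17.18 and 13.71 FPKM in RARA-KO+RA and at 12.52 and 11.09 FPKM in BATF-KO+RA. The groups did not overlap, as for 5366 of the 13396 genes tested (40.1%), and the difference was not called (0.36 ± 0.15, adjusted p = 0.317). Because reads from a transcript with a missing exon still add to the gene's value, the Rara level is no check of the deletion.

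Markers of CD8 T cells were abundant in all 4 samples, and markers of B cells were higher in RARA-KO+RA. The 14 CD8 T cell markers summed to 3615 to 4293 FPKM in RARA-KO+RA and to 4681 to 5014 FPKM in BATF-KO+RA. None of them was called, with 13 lower and a median log2 fold change of -0.27, against -0.02 over all 13396 genes tested. The 14 B cell markers summed to 994.5 and 1192 FPKM in RARA-KO+RA against 428.5 and 422.3 FPKM in BATF-KO+RA, and 486.2 and 303.6 FPKM in WT+RA. Of these, 11 were called higher and none lower (median 2.10), beside 3.08% of all genes called higher and 1.08% called lower, and 4 to 7 were called higher when 1 of the 4 samples was left out. Markers of NK and innate-like cells summed to 109.3 and 90.12 FPKM against 52.04 and 29.0 FPKM. Of 10 tested, 9 had a higher mean and 1 a lower one (-0.56), and Ncr1, Klrb1c and Klra4 were called higher. Ncr1 was the 1 still called without BATF-KO+RA replicate 1 or 2 or RARA-KO+RA replicate 1 (adjusted p of the lost calls 0.0533 to 0.172). Markers of myeloid cells summed to 123.1 and 120.3 FPKM against 81.36 and 30.66 FPKM. Of 10 tested, 8 had a higher mean and 2 a lower one (lowest -0.5), and Cd14, S100a8 and Adgre1 were called higher. All 3 calls were lost without BATF-KO+RA replicate 2 (adjusted p = 0.147, 0.112 and 0.175) and without RARA-KO+RA replicate 1 (adjusted p = 0.0533, 0.0751 and 0.0602), and those of Cd14 and Adgre1 also without RARA-KO+RA replicate 2, with a pseudocount of 0.1 and with only the compared samples in the fit (adjusted p from 0.0727 to 0.161). No B cell, NK or CD8 T cell marker was at 0 in these 4 samples. Erythroid and platelet markers summed to 143.5 and 16.63 FPKM in RARA-KO+RA and to 419.5 and 26.89 FPKM in BATF-KO+RA, with replicate 1 above replicate 2 in both groups, and none of the 5 tested was called (median -1.02). In bulk samples more cells of a type and more RNA per cell cannot be told apart, and the part of other cells in the results that follow was not tested.

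**Figure D1:**
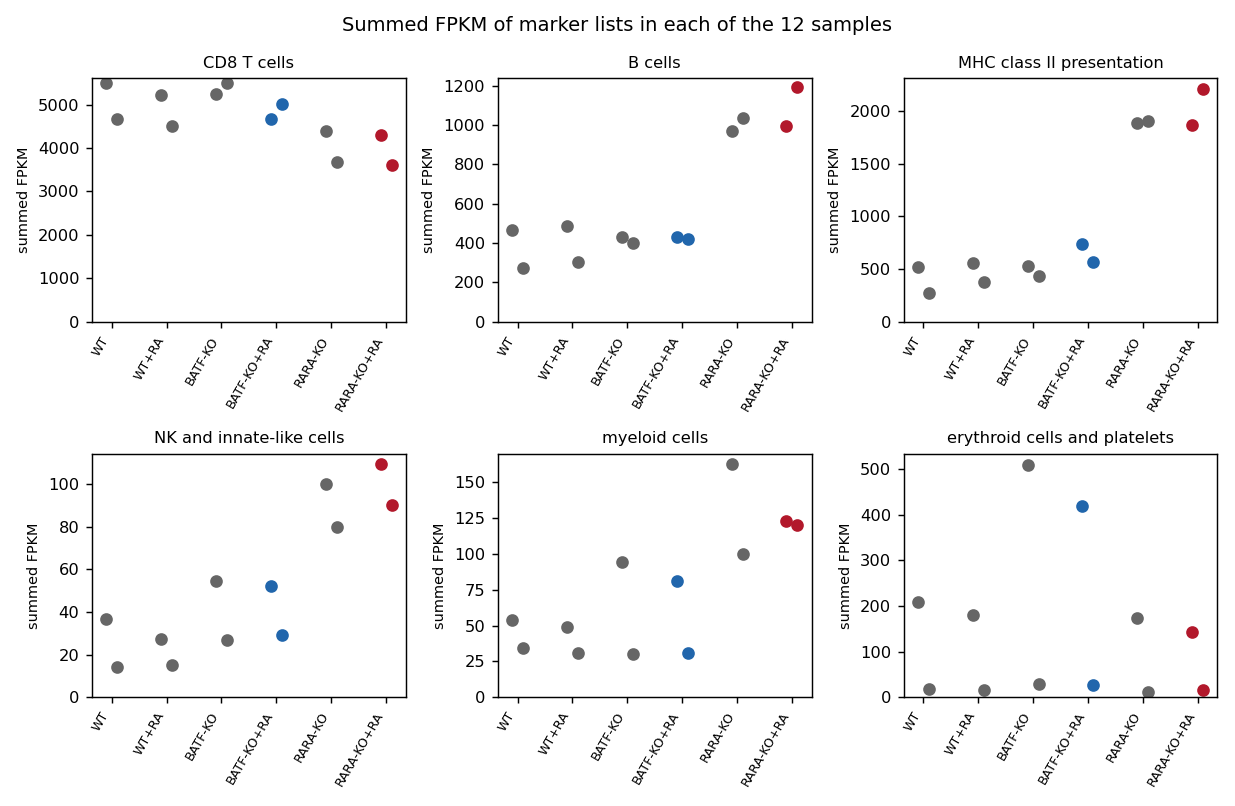
Summed FPKM of 6 gene lists (y axis, from 0) in each sample of the 6 groups (x axis), 1 point per sample, with BATF-KO+RA in blue and RARA-KO+RA in red. B cell markers and MHC class II genes stand higher in both RARA-KO+RA samples than in both BATF-KO+RA samples, and CD8 T cell markers stand lower.

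Across the whole table, 557 of 13396 genes were called (4.16%), of which 412 were higher and 145 lower in RARA-KO+RA. At an unadjusted p under 0.05 there were 1809 genes. A higher mean in RARA-KO+RA was seen for 46.8% of all 13396 genes. All 412 and all 145 called genes lacked overlap between the 2 groups, so a lack of overlap adds nothing to a call. The 412 higher genes include 112 immunoglobulin or T cell receptor segments and 36 predicted models or pseudogenes, which leaves 264 others. The 145 lower genes include 9 segments and 31 predicted models or pseudogenes, which leaves 105 others. Of 178 immunoglobulin segments tested, 108 were called higher and none lower, while of 142 T cell receptor segments 4 were called higher and 9 lower. Against WT+RA, RARA-KO+RA had 434 genes called higher (3.24%) and 70 lower (0.523%), in all 3.76% of those tested. BATF-KO+RA had 6 called higher (0.0448%) and 3 lower (0.0224%), in all 0.0672%, with 640 genes at an unadjusted p under 0.05. These comparisons share samples with each other, so their values are only set side by side below. With only the 4 compared samples in the fit 306 genes were called. Without BATF-KO+RA replicate 1 or 2 there were 318 and 185, and without RARA-KO+RA replicate 1 or 2 there were 340 and 224.

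**Figure D2:**
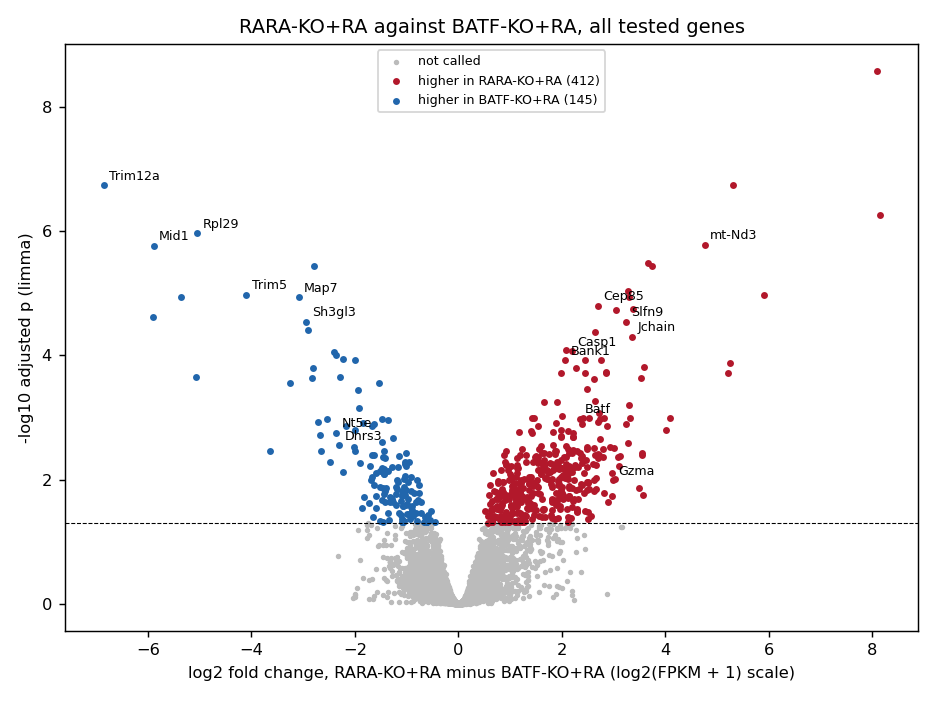
Log2 fold change of RARA-KO+RA over BATF-KO+RA (x axis) against -log10 of limma's adjusted p (y axis) for 13396 genes, with the 412 called higher in RARA-KO+RA in red, the 145 called lower in blue and the threshold of 0.05 as a dashed line. The points farthest to the left include Trim12a, Mid1 and Rpl29.

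Dhrs3, Sh3gl3 and Fbln2, which all had higher levels in WT+RA than in WT, were lower in RARA-KO+RA than in BATF-KO+RA. In WT without RA, Dhrs3 was at 0.31 and 0.24 FPKM, Sh3gl3 at 0.7 and 0.57 FPKM and Fbln2 at 0.59 and 0.61 FPKM. Dhrs3 (ENSMUSG00000066026, chromosome 4, 144892534 to 144928209), a reductase that turns retinal back into retinol and is a common RA target, was at 9.41 and 5.2 FPKM in RARA-KO+RA, 38.19 and 39.03 FPKM in BATF-KO+RA and 28.94 and 23.11 FPKM in WT+RA. RARA-KO+RA lay under both other groups without overlap (-2.30 ± 0.30, adjusted p = 0.00277, against BATF-KO+RA). Without RA, Dhrs3 was at 0.25 to 1.22 FPKM in RARA-KO and at 0.58 and 0.65 FPKM in BATF-KO. Sh3gl3 (ENSMUSG00000030638, chromosome 7, 82173808 to 82307420), which encodes an endophilin of vesicle membranes, was at 0.35 and 0.36 FPKM in RARA-KO+RA, 9.58 and 9.18 FPKM in BATF-KO+RA and 7.75 and 5.88 FPKM in WT+RA. Both RARA-KO+RA samples were far under the other groups (-2.94 ± 0.19, adjusted p = 2.87e-05). Fbln2 (ENSMUSG00000064080, chromosome 6, 91212460 to 91272540), an extracellular matrix fibulin, was at 1.73 and 2.68 FPKM in RARA-KO+RA, 16.31 and 15.38 FPKM in BATF-KO+RA and 7.68 and 7.66 FPKM in WT+RA. Its levels did not overlap between any 2 of these groups (-2.41 ± 0.18, adjusted p = 8.77e-05).

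Among 9 tested genes of retinoid response and handling, Dhrs3 was the only one called (median of the list -0.04). Asb2, a ubiquitin ligase subunit, was at 3.22 and 3.96 FPKM against 7.07 and 5.61 FPKM (-0.67, adjusted p = 0.168). The RA-degrading enzymes Cyp26a1 and Cyp26b1 stayed at or under 0.33 FPKM in all 12 samples and were not tested. Of 14 receptors and cofactors, Nrip1, a corepressor that binds liganded nuclear receptors, was called lower, at 23.24 and 26.46 FPKM against 54.99 and 46.32 FPKM (-1.0 ± 0.22, adjusted p = 0.0358). That call was lost without either sample of either group (adjusted p up to 0.203), without either WT sample, with only the compared samples in the fit, without the filter and with TPM scaling. The other 13, among them Rxra, Rxrb, Ncor1 and Ep300, had log2 fold changes from -0.34 to 0.54 and were not called.

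Of the 5 genes that the study lists with an RA response element, all had a lower mean in RARA-KO+RA and 1 was called lower. Over all genes tested 46.8% had a higher mean and 1.08% were called lower. Nt5e (ENSMUSG00000032420, chromosome 9, 88327609 to 88372089), which encodes the adenosine-producing surface enzyme CD73, was at 12.21 and 8.14 FPKM in RARA-KO+RA, 60.35 and 50.9 FPKM in BATF-KO+RA and 41.53 and 47.82 FPKM in WT+RA. RARA-KO+RA was well under both (-2.36 ± 0.28, adjusted p = 0.00174). Art2b, an ADP-ribosyltransferase of the T cell surface, had a log2 fold change of -1.12 (adjusted p = 0.0607) and was called with array weights (adjusted p = 0.0361) and without either RARA-KO sample that had no RA (adjusted p = 0.0188 and 0.0187). Replicate number as a block in the fit also called Art2b (adjusted p = 0.00914), though the labels do not say what that number marks. Not called were Ccr9, the gut homing receptor, -0.59 (adjusted p = 0.651), P2rx7, an ATP-gated channel, -0.43 (adjusted p = 0.806) and Itga4, an integrin chain, -0.12 (adjusted p = 0.945). P2rx7 and Itga4 overlapped between the groups, and both changed direction without RARA-KO+RA replicate 2 (0.15 and 0.06). The study named Nt5e, Ccr9 and Art2b from these samples, so their direction is not independent evidence.

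Of 19 AP-1, BATF and IRF factors, 5 were called higher and none lower (median 0.67), beside 3.08% and 1.08% of all genes. Jun (ENSMUSG00000052684, chromosome 4, 95049036 to 95052222), a DNA-binding partner of BATF, was at 59.84 and 62.71 FPKM in RARA-KO+RA, 37.56 and 38.82 FPKM in BATF-KO+RA and 48.88 and 43.62 FPKM in WT+RA. The 3 groups did not overlap, with WT+RA between the knockouts (0.67 ± 0.11, adjusted p = 0.00788). Junb was at 140.95 and 183.68 FPKM against 93.96 and 84.83 FPKM (0.84, adjusted p = 0.0235). The basic leucine zipper factors Maf (1.02, adjusted p = 0.00964) and Maff (0.87, adjusted p = 0.0107) were also called, and Batf is the fifth. The call of Batf was set by the design, since it is the gene targeted in BATF-KO, and the list median includes it. The calls of Jun, Junb and Maff were lost without either BATF-KO+RA sample and without RARA-KO+RA replicate 2, that of Maf without replicate 2 of either group, and all 4 with only the compared samples in the fit (adjusted p of the lost calls 0.0611 to 0.201). Junb was also lost without the filter (adjusted p = 0.0596). Irf4 (0.86, adjusted p = 0.352), Irf8 (0.73, adjusted p = 0.397), Fos (0.90, adjusted p = 0.231) and Batf3 (0.11, adjusted p = 0.953) were not called.

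The next list takes the genes the study describes as raised by loss of RARα. It was picked on the samples compared here and is no independent evidence of direction. All 11 members had a higher mean in RARA-KO+RA than in BATF-KO+RA, beside 46.8% of all genes, and Jun alone was called (median 1.48). The others ran from Zbtb32, a zinc finger factor (0.69, adjusted p = 0.693), to Ifng, encoding interferon gamma (2.27, adjusted p = 0.145). Ifng was at 64.8 and 136.1 FPKM in RARA-KO+RA and at 17.68 and 19.63 FPKM in BATF-KO+RA, with WT+RA between at 60.04 and 34.24 FPKM. Tbx21, the T-bet factor of type 1 effector cells, was at 26.16 and 62.78 FPKM against 9.38 and 9.99 FPKM (1.96, adjusted p = 0.0999). For both genes the RARA-KO+RA samples lay above the BATF-KO+RA samples and were themselves far apart. Between are Il12rb2 (1.78, adjusted p = 0.0628), Lif (1.68, adjusted p = 0.3), Ccl3 (1.52, adjusted p = 0.236), Nr4a3 (1.48, adjusted p = 0.264), Ifit1 (1.41, adjusted p = 0.0529) and Il12rb1 (1.31, adjusted p = 0.177). With only the compared samples in the fit, Ifng (adjusted p = 0.0482) and Il12rb2 (adjusted p = 0.0402) were called. Without either RARA-KO sample that had no RA, Ifng was called too (adjusted p = 0.00928 and 0.00925). Array weights called Il12rb2 (adjusted p = 0.0444) and Ifit1 (adjusted p = 0.0246), and TPM values Ifit1 (adjusted p = 0.0477). Replicate number as a block in the fit called Il12rb2 (adjusted p = 0.00458), Il12rb1 (adjusted p = 0.0123), Tbx21 (adjusted p = 0.0169) and Ifit1 (adjusted p = 0.0194). The labels do not say what that number marks. Il12rb2 was called without any 1 of the 4 WT samples (adjusted p from 0.0375 to 0.0393), and Ifit1 without either of those RARA-KO samples or RARA-KO+RA replicate 1 (adjusted p from 0.0183 to 0.026).

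Of 8 tested transcription factors that the study picked in the same way, Batf, Jun and Junb were called higher and none lower (median 0.85), with Egr1 at 0.66 (adjusted p = 0.555) and Egr2 at 0.69 (adjusted p = 0.572). Batf is the gene targeted in BATF-KO, so its call was set by the design, and the median includes it. Prdm1 stayed under the filter, at 1.14 and 0.92 FPKM in RARA-KO+RA and 0.36 and 0.23 FPKM in BATF-KO+RA. A further list holds loci described as bound by both factors. Of its 11 tested members, Gzma and Jun were called higher and none lower (median 0.86). The rest include Nr4a1 (0.97, adjusted p = 0.352), Il18r1 (0.86, adjusted p = 0.179), Ccl5 (0.52, adjusted p = 0.848) and Ifngr1 (0.10, adjusted p = 0.968). Of these, Il18r1 (adjusted p = 0.0268) and Ccl5 (adjusted p = 0.0399) were called with replicate number as a block in the fit. All 13 factors of T cell receptor signalling had a higher mean in RARA-KO+RA (median 0.66), beside 46.8% of all genes. Among the 13, beside 3.08% of all genes called higher, 1 was called, the early activation antigen Cd69 (0.85, adjusted p = 0.0485). It was lost in 16 alternatives, among them the removal of any 1 of the 4 compared samples, of either WT+RA or of either BATF-KO sample (adjusted p up to 0.383).

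**Figure D3:**
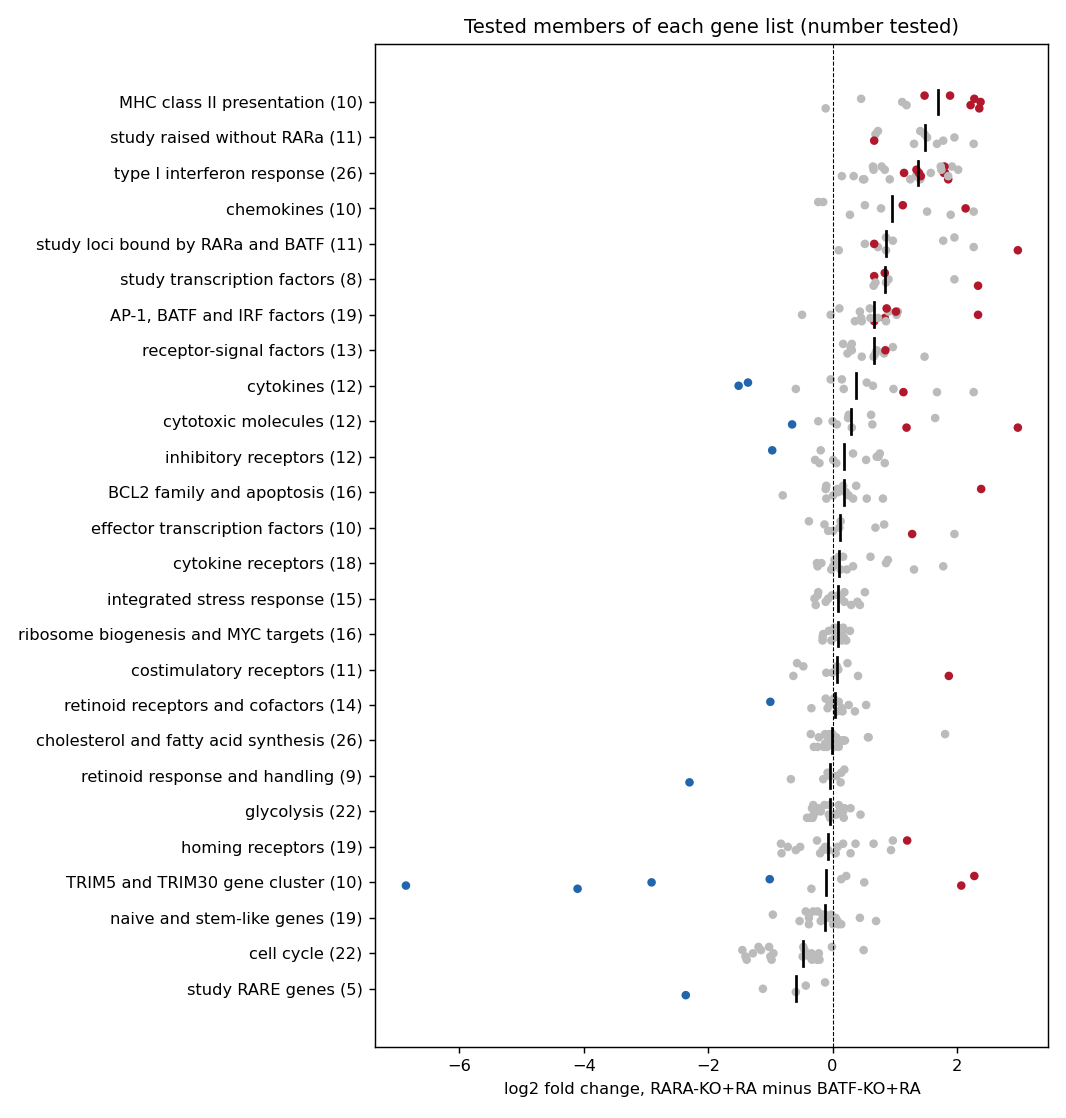
Log2 fold change of RARA-KO+RA over BATF-KO+RA (x axis) for each tested member of 26 gene lists (y axis, ordered by median), with called members in red (higher) or blue (lower), others in grey and the median as a black bar. MHC class II and interferon response genes lie to the right, and cell cycle genes mostly to the left without a call.

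Of 12 cytotoxic molecules tested 2 were called higher and 1 lower, beside 3.08% of all genes called higher and 1.08% called lower. Gzma (ENSMUSG00000023132, chromosome 13, 113093824 to 113100981), a granule protease, was at 56.73 and 36.25 FPKM in RARA-KO+RA, 7.73 and 2.97 FPKM in BATF-KO+RA and 5.33 and 3.11 FPKM in WT+RA. RARA-KO+RA stood above both (2.98 ± 0.51, adjusted p = 0.0102), but the call was lost without RARA-KO+RA replicate 1 (adjusted p = 0.0734) and without BATF-KO+RA replicate 2 (adjusted p = 0.105). Gzmb, the main granzyme of activated cells, was at 256.43 and 795.6 FPKM against 317.56 and 264.27 FPKM, which overlap (0.64, adjusted p = 0.843). Its direction turned without RARA-KO+RA replicate 2. Of 12 cytotoxic molecules, Gzma and the death ligand Fasl (1.19, adjusted p = 0.0159) were called higher and the death ligand Tnfsf10 lower (-0.65, adjusted p = 0.0404), with a list median of 0.29. Fasl was lost without RARA-KO+RA replicate 1 (adjusted p = 0.116), without BATF-KO+RA replicate 2 (adjusted p = 0.156) and with only the compared samples (adjusted p = 0.101), and Tnfsf10 in 13 alternatives, among them the removal of any sample other than the WT samples without RA (adjusted p up to 0.237).

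Tnfrsf9 (ENSMUSG00000028965, chromosome 4, 150920155 to 150946104), which encodes 4-1BB, a costimulatory receptor, was at 160.53 and 196.71 FPKM in RARA-KO+RA, 47.39 and 48.52 FPKM in BATF-KO+RA and 62.58 and 47.56 FPKM in WT+RA. It was the 1 of 11 costimulatory receptors called, with no overlap between RARA-KO+RA and the others (1.87 ± 0.25, adjusted p = 0.00344). Cxcl10, a chemokine that recruits CXCR3-bearing cells, was at 31.73 and 29.49 FPKM against 7.14 and 5.29 FPKM (2.14 ± 0.33, adjusted p = 0.0065), and was lost without BATF-KO+RA replicate 2 (adjusted p = 0.0739). Gadd45b, a stress-induced signalling adaptor chosen after its values were seen, was at 63.08 and 58.61 FPKM against 14.78 and 11.64 FPKM, with WT+RA between at 39.05 and 20.99 FPKM (2.13 ± 0.29, adjusted p = 0.00366). Ly6a, the surface antigen Sca-1, chosen in the same way, was at 351.48 and 417.6 FPKM against 87.86 and 117.45 FPKM, again with WT+RA between at 183.53 and 190.89 FPKM (1.90 ± 0.19, adjusted p = 0.000564).

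The remaining lists held the calls that follow, beside 3.08% of all genes called higher and 1.08% called lower. Zbtb7b, the ThPOK factor of CD4 T cells, was at 6.55 and 6.37 FPKM against 1.71 and 1.71 FPKM (1.46 ± 0.16, adjusted p = 0.00101), and Cd4 was the other of 4 CD4 T cell markers called higher (0.92, adjusted p = 0.0469). Of these 4 markers 3 had a higher mean and 1 a lower one. The lower one, Foxp3, was at 7.94 and 4.15 FPKM against 9.16 and 8.33 FPKM (-0.52) and was not called. Bcl2a1a, an anti-apoptotic BCL2 relative with close copies, was the 1 of 16 apoptosis genes called, at 9.09 and 7.39 FPKM against 1.28 and 0.36 FPKM (2.39 ± 0.27, adjusted p = 0.00129). Of 10 chemokines Cxcl10 and Cxcl16 (1.13, adjusted p = 0.02) were called higher, of 19 homing receptors the B cell follicle receptor Cxcr5 (1.20, adjusted p = 0.0447), of 10 effector factors Bhlhe40 (1.28, adjusted p = 0.0374) and of 11 memory-phenotype markers Fasl. Each of Cd4, Cxcl16, Cxcr5 and Bhlhe40 was lost without any 1 of the 4 compared samples and with only those samples in the fit (adjusted p from 0.0573 to 0.286). Cd4 and Cxcr5 were also lost without either WT+RA or BATF-KO sample, Cd4 without either WT sample, Bhlhe40 without either BATF-KO sample, and Cxcr5 and Bhlhe40 without either RARA-KO sample (adjusted p from 0.0501 to 0.0767).

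None of 19 naive and stem-like genes was called (median -0.12). Tcf7, the TCF1 factor of naive and memory cells, was at 407.1 and 352.64 FPKM against 363.78 and 323.28 FPKM, which overlap (0.14, adjusted p = 0.877). Ccr7 (-0.16, adjusted p = 0.806), the lymph node homing receptor, was not called either. No member was called among 18 cytokine receptors, 22 glycolysis genes, 26 genes of cholesterol and fatty acid synthesis, 15 of the integrated stress response or 16 of ribosome biogenesis, whose medians lay between -0.04 and 0.11.

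All 26 genes of the type I interferon response had a higher mean in RARA-KO+RA, beside 46.8% of all genes. Of the 26, 8 were called higher and none lower, beside 3.08% and 1.08% of all genes, and the median was 1.37. Without RARA-KO+RA replicate 1 the count was 16, without BATF-KO+RA replicate 1 it was 1, and without replicate 2 of either group it was 0. Stat2, which carries the interferon signal to the nucleus, was at 100.88 and 163.52 FPKM against 55.61 and 42.37 FPKM (1.39 ± 0.24, adjusted p = 0.0102). Ifit3, an antiviral RNA-binding protein, was at 84.65 and 138.93 FPKM against 33.66 and 27.96 FPKM, with WT+RA between at 66.93 and 40.55 FPKM (1.79 ± 0.31, adjusted p = 0.0118). Oas1a (1.81, adjusted p = 0.0133) and Usp18 (1.35, adjusted p = 0.0233) were called as well, while Isg15 (1.92, adjusted p = 0.0903) was not. Each of the 4 called genes named here was lost without BATF-KO+RA replicate 2 and without RARA-KO+RA replicate 2, and Ifit3, Oas1a and Usp18 also without BATF-KO+RA replicate 1 (adjusted p from 0.0515 to 0.159). Stat2, Oas1a and Usp18 were lost with only the compared samples in the fit (adjusted p from 0.0764 to 0.136), and the last pair without the filter as well. Ifit3 and its neighbour Ifit3b, and the Oas1 genes, are near-identical copies whose shared reads the authors' counting divides, so single members are uncertain.

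Genes of antigen presentation on MHC class II were called higher for 6 of 10 members and lower for none (median 1.69), and for 1 to 3 when 1 of the 4 samples was left out. Ciita (ENSMUSG00000022504, chromosome 16, 10480014 to 10531064), the factor that switches these genes on, was at 13.75 and 18.39 FPKM in RARA-KO+RA, 4.31 and 2.91 FPKM in BATF-KO+RA and 2.11 and 1.21 FPKM in WT+RA (1.89 ± 0.25, adjusted p = 0.00344). H2-Aa, an MHC class II chain, was at 189.03 and 210.94 FPKM against 44.35 and 32.58 FPKM (2.36 ± 0.41, adjusted p = 0.0117). That call was lost without RARA-KO+RA replicate 1 or 2, without BATF-KO+RA replicate 2 and without the filter (adjusted p from 0.0513 to 0.118). Over all genes 3.08% were called higher and 1.08% lower. MHC class II genes are also expressed by B cells, whose markers moved the same way. Bank1, a B cell adaptor, was at 19.25 and 22.51 FPKM against 4.39 and 4.05 FPKM (2.06 ± 0.16, adjusted p = 0.00012). Jchain, which joins antibodies into polymers, was at 15.17 and 12.15 FPKM against 0.48 and 0.38 FPKM (3.35 ± 0.23, adjusted p = 5e-05). Fcmr, the IgM Fc receptor, was at 57.74 and 79.23 FPKM against 9.8 and 8.99 FPKM (2.72 ± 0.38, adjusted p = 0.00399). The NK receptor gene Ncr1 was at 6.5 and 4.46 FPKM against 0.22 and 0.13 FPKM (2.45 ± 0.21, adjusted p = 0.000194).

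Mid1, Lgals3, H19 and Lrrc32 were lower in RARA-KO+RA and stood above WT+RA in BATF-KO+RA, where Mid1 and Lgals3 were called against WT+RA and H19 and Lrrc32 were not (adjusted p = 0.0631 and 0.293). Mid1 (ENSMUSG00000035299, chromosome X, 169685199 to 169990798), a microtubule-associated ubiquitin ligase, was at 135.85 and 183.21 FPKM in BATF-KO+RA, 1.47 and 1.9 FPKM in RARA-KO+RA and 7.38 and 7.5 FPKM in WT+RA. The 3 groups were far apart, and the gene was called against WT+RA in both knockouts, higher in BATF-KO+RA (4.23, adjusted p = 0.000254) and lower in RARA-KO+RA (-1.66, adjusted p = 0.0045). Lgals3 (ENSMUSG00000050335, chromosome 14, 47373860 to 47386167), galectin-3, chosen after its values were seen, was at 22.75 and 21.0 FPKM in BATF-KO+RA, 8.02 and 5.02 FPKM in RARA-KO+RA and 5.56 and 5.56 FPKM in WT+RA. RARA-KO+RA spanned the WT+RA level, and both lay under BATF-KO+RA (-1.63 ± 0.23, adjusted p = 0.00405). H19, an imprinted noncoding RNA, was at 9.69 and 7.39 FPKM in BATF-KO+RA against 0.47 and 0.42 FPKM, with 0.87 and 1.54 FPKM in WT+RA (-2.71 ± 0.30, adjusted p = 0.0012). Lrrc32, which anchors latent TGF-β at the cell surface, was at 13.55 and 8.38 FPKM against 1.0 and 0.7 FPKM, with 1.9 and 3.63 FPKM in WT+RA (-2.66 ± 0.36, adjusted p = 0.00344).

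Of 22 cell cycle genes 21 had a lower mean in RARA-KO+RA and none was called (median -0.48), with Mki67 at 5.49 and 9.99 FPKM against 20.1 and 24.23 FPKM (-1.45, adjusted p = 0.172). With replicate number as a block in the limma fit, members of this list were called lower, among them Mki67 (adjusted p = 0.00426) and Top2a (adjusted p = 0.00516). What that number marks is not given. Some mitosis genes outside that list, chosen after their values were seen, were called lower in the main limma fit. They include Nusap1 (-1.82, adjusted p = 0.0192), Kif22 (-1.05, adjusted p = 0.00971), Kifc1 (-1.05, adjusted p = 0.0133), Cdc20 (-1.02, adjusted p = 0.0258) and Cenpe (-1.15, adjusted p = 0.0349). Each of these calls was lost in 3 to 10 alternatives. Outside that list and chosen after its values were seen, Kif23 (ENSMUSG00000032254, chromosome 9, 61917277 to 61946810), a kinesin of cytokinesis, was at 6.2 and 6.81 FPKM against 18.8 and 21.11 FPKM, with WT+RA between at 11.69 and 11.01 FPKM. The 3 groups did not overlap (-1.48 ± 0.16, adjusted p = 0.00105). Ccnb2, a mitotic cyclin chosen likewise, was at 3.69 and 2.99 FPKM against 9.28 and 12.81 FPKM (-1.46 ± 0.21, adjusted p = 0.0043), and was lost without BATF-KO+RA replicate 2 (adjusted p = 0.0518). The cytokine genes Il4 (-1.51, adjusted p = 0.0463) and Il13 (-1.36, adjusted p = 0.0343) were called lower and the growth factor Csf1 higher (1.14, adjusted p = 0.0176) of 12 cytokines. Il4 and Il13 were at or under 4.94 FPKM in the 4 samples, and all 3 calls were lost with only the compared samples, without the filter and without BATF-KO+RA replicate 1 (adjusted p from 0.059 to 0.208). Il4 was also lost without any 1 of the WT+RA, RARA-KO or RARA-KO+RA samples or BATF-KO+RA replicate 2, Il13 without any 1 of the WT or RARA-KO+RA samples, and Csf1 without replicate 2 of either compared group (adjusted p up to 0.252). The inhibitory receptor Tigit was called lower, at 19.3 and 19.48 FPKM against 41.17 and 36.64 FPKM (-0.97 ± 0.17, adjusted p = 0.0108), and was lost without any 1 of the 4 samples (adjusted p from 0.0629 to 0.0819).

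**Figure D4:**
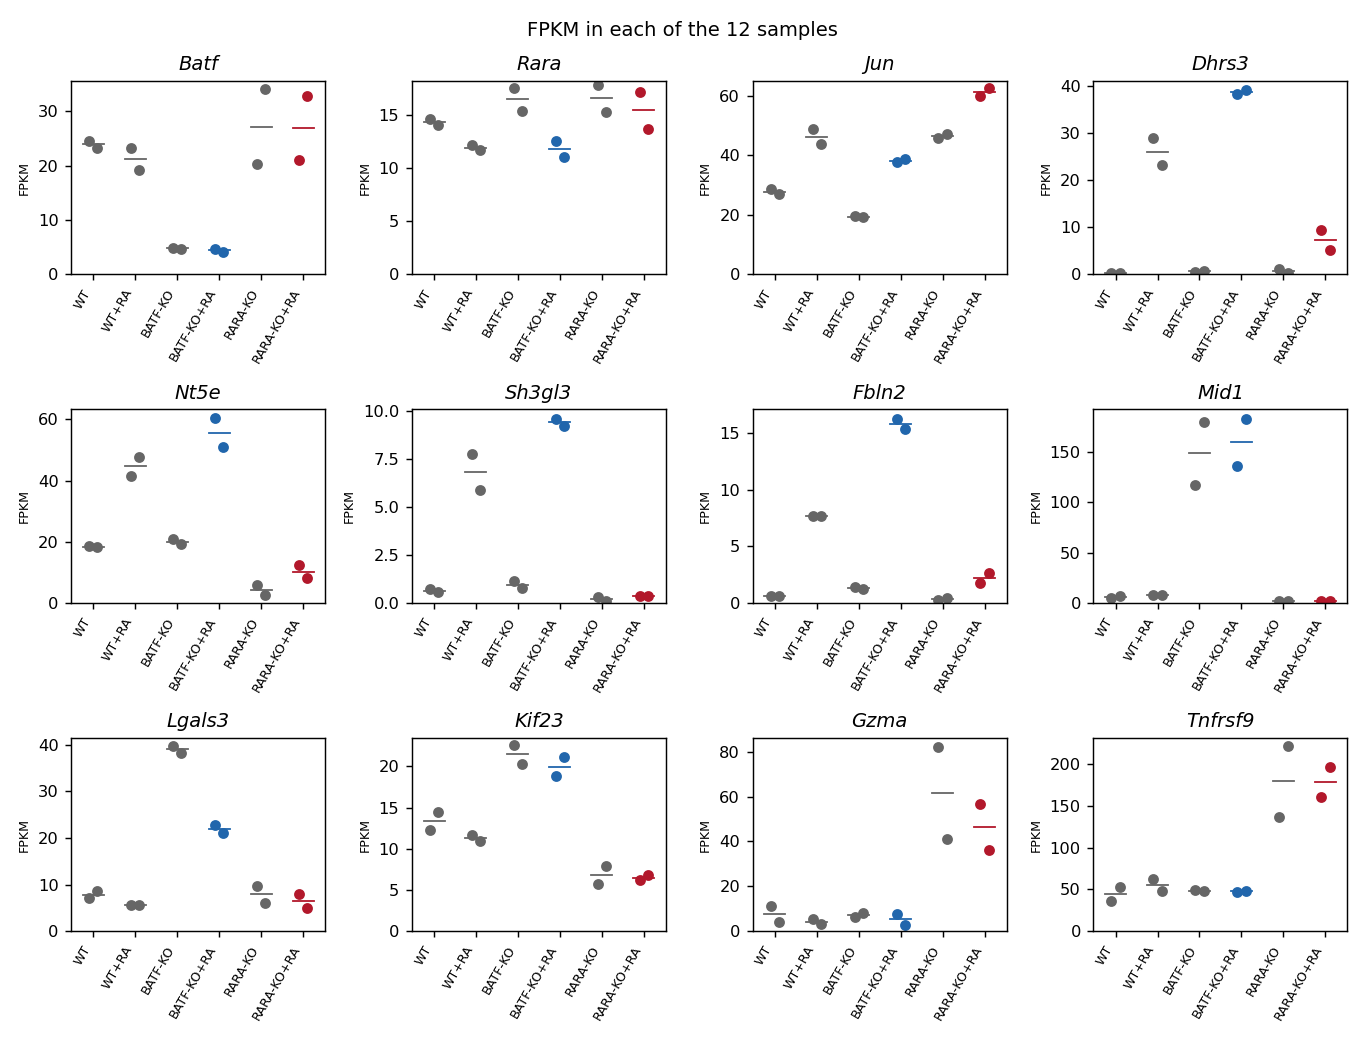
FPKM (y axis, from 0) of 12 genes in each sample of the 6 groups (x axis), 1 point per sample with the group mean as a bar, BATF-KO+RA in blue and RARA-KO+RA in red. Dhrs3, Sh3gl3 and Fbln2 are highest in WT+RA and BATF-KO+RA, and Mid1 and Lgals3 are highest in the BATF-KO groups.

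Many of the largest differences in either direction were in genes that belong to families of close copies. In the cluster of antiviral TRIM genes on chromosome 7, Trim12a (ENSMUSG00000066258, 104299893 to 104315558) was at 0 and 0.03 FPKM in RARA-KO+RA, 133.21 and 103.02 FPKM in BATF-KO+RA and 139.22 and 109.76 FPKM in WT+RA (-6.86 ± 0.20, adjusted p = 1.84e-07). Its neighbour Trim5 was at 0.01 and 0.02 FPKM against 19.09 and 14.11 FPKM (-4.10 ± 0.22, adjusted p = 1.05e-05). Trim30d (-2.91) and Trim34a (-1.01) were also called lower, while Trim30c (2.07) and Trim34b (2.28) were called higher, so 4 of 10 cluster genes fell and 2 rose. Rpl29, a ribosomal protein gene on chromosome 9, was at 31.12 and 38.6 FPKM in RARA-KO+RA against 1092.54 and 1278.17 FPKM (-5.05 ± 0.19, adjusted p = 1.08e-06). Rps7 was at 961.22 and 925.26 FPKM against 1649.66 and 1919.7 FPKM and its pseudogene Rps7-ps3 at 1230.71 and 1078.53 FPKM against 25.68 and 30.81 FPKM, a pair chosen after their values were seen. Their sum was 2192 and 2004 FPKM against 1675 and 1951 FPKM, so together they differed far less than either alone. The predicted genes Gm8210 (257.48 and 286.08 FPKM against 0 and 0) and Gm6969 (439.35 and 297.35 FPKM against 0 and 0.64) showed the largest rises. The mitochondrial gene mt-Nd3, a subunit of respiratory complex I, was at 1224.02 and 920.96 FPKM against 34.87 and 41.81 FPKM (4.76 ± 0.19, adjusted p = 1.67e-06). Reads shared among such copies were divided by the authors' counting, and single members are uncertain. Apart from Rps7 and Rps7-ps3 no copies were summed. Whether shared reads account for the differences of the other genes here, Rpl29 and mt-Nd3 among them, was not tested.

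Other genes with large differences were the Schlafen family member Slfn9 (3.24, adjusted p = 2.87e-05) and Cep85 (2.69, adjusted p = 1.6e-05), both higher, and Map7, which encodes a microtubule-binding protein, lower (-3.09, adjusted p = 1.17e-05). Of the Schlafen family, Slfn8 was called lower (-1.18, adjusted p = 0.0139) and Slfn5 higher (2.11, adjusted p = 0.0481), calls lost in 3 and 17 alternatives. Whether shared reads account for the differences of the Schlafen genes was not tested. Cep85, a centrosome protein, was at 79.49 and 87.83 FPKM against 12.97 and 11.26 FPKM. Map7 was at 0.55 and 0.34 FPKM against 11.43 and 11.09 FPKM, near WT+RA at 9.79 and 11.01 FPKM. Serpina3g, a serine protease inhibitor of activated T cells with close copies, was at 105.16 and 130.91 FPKM against 10.06 and 11.7 FPKM (3.32 ± 0.36, adjusted p = 0.00101), and its copy Serpina3f at 26.16 and 35.28 FPKM against 1.62 and 2.87 FPKM. WT+RA lay between the knockouts for both, at 27.71 and 13.69 FPKM for Serpina3g. The inflammatory caspase gene Casp1, chosen after its values were seen, was at 9.09 and 9.87 FPKM against 1.32 and 1.23 FPKM (2.20 ± 0.16, adjusted p = 8.62e-05), and its neighbour Casp4, chosen likewise, at 6.86 and 11.4 FPKM against 1.44 and 0.54 FPKM. Rasgrp3, an activator of RAS proteins, was at 11.73 and 12.93 FPKM against 1.63 and 0.63 FPKM (2.69 ± 0.30, adjusted p = 0.00118). Ctsh, a lysosomal protease, was at 36.66 and 45.97 FPKM against 6.63 and 4.57 FPKM (2.69 ± 0.38, adjusted p = 0.0044), and its call was lost without BATF-KO+RA replicate 2 (adjusted p = 0.0554). For these 4 genes both RARA-KO+RA samples stood above every WT+RA and BATF-KO+RA sample.

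Among receptor segments, the T cell receptor segment Trbv24 was at 87.67 and 58.28 FPKM in RARA-KO+RA against 5.45 and 4.71 FPKM (3.58 ± 0.29, adjusted p = 0.000152), while Trbv16 was at 15.11 and 6.75 FPKM against 70.21 and 69.77 FPKM (-2.67 ± 0.32, adjusted p = 0.00191). Trbv12-2 was at 5.65 and 7.18 FPKM against 41.51 and 43.07 FPKM (-2.55 ± 0.28, adjusted p = 0.00105). WT+RA lay with BATF-KO+RA for all 3 segments. The immunoglobulin constant gene Ighg2b was at 26.46 and 11.92 FPKM against 0.06 and 0.15 FPKM (4.09 ± 0.44, adjusted p = 0.001). Leaving out receptor segments, 369 of 10870 genes with a RefSeq position were called. Genes called lower made up 2.51% of those on chromosome 9, 2.11% on X and 1.92% on chromosome 7, against 0.966% over all chromosomes, given as a description with no test. On chromosome 9 these include Nt5e, Cyb5r4, Cox7a2, Rpl29 and Abhd14a.

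The same knockouts without RA showed most of these differences, in other samples. RARA-KO against BATF-KO gave 376 genes called higher (2.81%) and 126 lower (0.941%), in all 3.75% of 13396. Of the 557 genes called with RA, 396 were called in the same direction without RA (71.1%), which is 78.9% of the 502 called without RA, and none was called in opposite directions. Whether the samples with and without RA come from the same mice is not stated. The test of the difference between the 2 comparisons called 0 genes (0%) with limma, with 163 at an unadjusted p under 0.05 (1.22%). That share is lower than the threshold alone would give if no gene differed, and the fit did not pair samples with and without RA. The lack of calls therefore does not show that the knockouts differ equally with and without RA. Among the genes described above, Sh3gl3, Fbln2 and Dhrs3 had unadjusted p-values in this test of 1.02e-05, 9.69e-05 and 0.000279. Sh3gl3 had a log2 fold change of -0.68 without RA and -2.94 with RA (difference -2.25 ± 0.26, adjusted p = 0.137), and Dhrs3 0.05 and -2.30 (difference -2.35 ± 0.42, adjusted p = 0.624). Fbln2 had -0.78 without RA and -2.41 with RA (difference -1.63 ± 0.25, adjusted p = 0.344). In all 3 genes BATF-KO+RA was far above BATF-KO. With genotype and replicate number as a block, the difference for Dhrs3 was called (adjusted p = 0.0291), and with no mean-variance trend that for Sh3gl3 was (adjusted p = 0.0168).

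**Figure D5:**
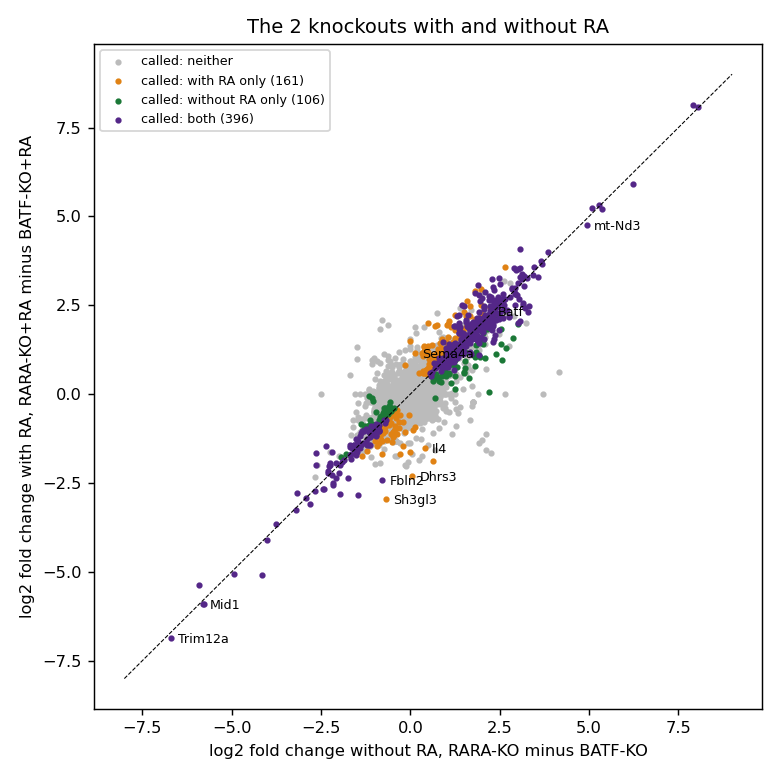
Log2 fold change of RARA-KO over BATF-KO without RA (x axis) and with RA (y axis) for each tested gene, from separate samples, with 396 genes called in both in purple, 161 with RA only in orange and 106 without RA only in green, and the dashed line marking equal values. Most called genes lie near the line, and Sh3gl3, Dhrs3 and Fbln2 lie below it.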

How the data were processed

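Libraries were aligned by the authors with STAR 2.7.8a and quantified with RSEM 1.3.3 (versions per the submitters' processing notes), and the deposited table gives FPKM on GRCm38 for 55487 genes and 4 transgene entries, 1 column per sample, with 0 sample columns left unmapped. The labels name a total RNA kit as well as poly-A enrichment, which bears on noncoding, pseudogene and mitochondrial values. FPKM are not counts, so no count model was used. Genes at 1 FPKM or more in at least 2 samples (13396) were fitted as log2(FPKM + 1) with limma 3.58.1 (R 4.3.3) over 6 group means and all 12 samples, with a mean-variance trend (6 residual and 3.39 prior degrees of freedom), two-sided moderated tests, Benjamini-Hochberg adjustment and a call at adjusted p under 0.05. The pseudocount of 1 understates changes of low genes. The fit was tested on simulated data with independent spread in each sample, so deviations shared by same-numbered samples were not covered. Gene positions come from RefSeq GRCm38.p6 for 10870 of the tested genes. Values with ± are standard errors.

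The comparison and the 34 gene lists were chosen with earlier results of these data known. Lists are described by counts and medians with no set test. Named genes are Batf, Rara, the members of 4 study lists, the 10 called genes in each direction that changed most (higher group at 5 FPKM or above, no overlapping samples, neither predicted models nor segments), up to 4 called members of each other list, up to 6 per direction for the difference with RA and up to 3 segments and 3 predicted models per direction. Others are said to be chosen after their values were seen. Alternatives changed the pseudocount, filter, scaling, samples, weights, trend, receptor segments and replicate block, and left out each sample in turn. Samples of 1 genotype and number with and without RA deviated together (correlation 0.398 to 0.578), so they were treated as pairs in a block fit of the difference with RA. Same-numbered samples of different genotypes also correlated, from 0.0795 (WT+RA with BATF-KO+RA) to 0.452 (WT with RARA-KO). The main fit holds no term for the replicate number. Tables were made in Python 3.11.15 with pandas 2.3.3 and numpy 2.4.6, and plots with matplotlib 3.10.9.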

Additional observations from a re-analysis of the deposited data

Results flagged for a closer look

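The deposited table holds entries for transgenes that no comparison used. The Cre entry was at 680.9 FPKM in RARA-KO+RA replicate 1 and at 86.67 FPKM in replicate 2, against at most 0.13 FPKM in BATF-KO+RA and 0.07 FPKM in WT+RA. It stands out because it is far above the level in the control samples and because the 2 replicates differ. RARA-KO without RA showed the same split, at 824.25 and 79.29 FPKM. What the split between replicates comes from was not tested.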

How the results depend on the processing

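The count of 557 called genes became 306 (230 higher and 76 lower) with only the compared samples, 1000 (622 and 378) with a replicate block, and 395 (274 higher) without receptor segments, where 395 genes were shared. The share of called genes that were higher was 74.0% in the main analysis and 62.2% with the block. The labels do not say what a replicate number marks. Deviations of same-numbered BATF-KO+RA and RARA-KO+RA samples correlated at 0.21. Between other groups of different genotype the correlation ran from 0.0795 (WT+RA with BATF-KO+RA) to 0.452 (WT with RARA-KO). Erythroid markers were higher in replicate 1, and whether the numbers pair the samples is unsettled. The block also called Il12rb2 (adjusted p = 0.00458), Il12rb1 (0.0123), Tbx21 (0.0169), Ifit1 (0.0194), Il18r1 (0.0268), Ccl5 (0.0399), Art2b (0.00914), Mki67 (0.00426) and Top2a (0.00516), and 9 cell cycle genes lower where the main analysis called 0. Leaving out 1 sample gave 185 to 565 called genes, 127 to 426 higher and 58 to 139 lower, the lowest without BATF-KO+RA replicate 2. The difference with RA, with 0 genes called, gave 1 with genotype and replicate number as a block, 15 without the filter, 3 with no trend and 1 with a pseudocount of 0.1. Of 102 named called genes 52 kept the call under every alternative and none reversed. Uncalled genes changed sign when 1 sample was left out, with log2 fold changes of -0.27 to 0.49 for Batf3, -0.18 to 1.45 for Gzmb, -0.23 to 0.43 for Ifngr1, -0.31 to 0.07 for Itga4 and -1.01 to 0.15 for P2rx7. With 2 samples per group and FPKM alone, small differences could not be detected.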
